A study of Arabidopsis thaliana with 3 samples.

Results

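The genes described here encode the small heat shock proteins that Arabidopsis thaliana makes for its organelles rather than for the cytosol. They are 6 loci of the 25665 that the arrays carry, taken by locus code, and each is read by 1 probe out of 37478 noncontrol probes. They are ATHSP22.0 (AT4G10250) of the endoplasmic reticulum, HSP21 (AT4G27670) of the plastid, HSP23.6-MITO (AT4G25200) and AT5G51440 of mitochondria, AT1G52560, and AT5G37670, counted here with the peroxisome. The loci were chosen by protein family and compartment and on their ratios of tdt-1 over wild type in these arrays, so those ratios are given as a description and no test of them is reported.

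RNA from whole tdt-1 seedlings was hybridised against RNA from whole wild-type seedlings, both 3 days old and raised on MS agar under constant light at 22 °C. Each of 3 arrays carried tdt-1 in 1 colour and wild type in the other, and the study's design text calls the arrays biological replicates. The mutant was in Cy5 on replicates 1 and 2 and in Cy3 on replicate 3. The labels give neither the accession of the wild type nor the nature of the tdt-1 allele, and a whole seedling mixes all its tissues, so that more RNA per cell and more cells of a type cannot be told apart.

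Small heat shock proteins are chaperones built around a conserved alpha-crystallin domain. They bind proteins that begin to unfold and keep them soluble until chaperones that use ATP refold them, and plants, unlike most other organisms, send members of the family into the plastid, the mitochondria, the endoplasmic reticulum and the peroxisome. Their genes are nearly silent in most vegetative tissue at moderate temperature and are switched on by heat shock transcription factors, which bind heat shock elements in their promoters. Several family members are also made during seed maturation.

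Unless intensities are named, each value is the log2 of the tdt-1 signal divided by the wild-type signal, and 1 unit is a doubling. Intensities are the scanner software's processed signals, in arbitrary units after its background subtraction and dye normalization. They are not scaled between arrays, and they compare genotypes within an array, not probes with each other. DCP2 (AT5G13570), for which the reference table lists TDT and TRIDENT as synonyms, stood at −0.44, −0.46 and −0.96 on replicates 1, 2 and 3 (mean −0.62 ± 0.29, SD, n = 3, limma adjusted p = 0.0629). Replicate 3 differs from the other arrays in dye orientation, layout, scan day, scan resolution and software version, and those differences cannot be told apart. Over all 20484 tested loci, the ratio on replicate 3 minus the mean of replicates 1 and 2 had an SD of 0.60, against 0.18 for replicate 2 minus replicate 1. In wild type, 3 of 3 shoot markers and 4 of 4 root markers stood well above background on each array, the scanner software's detection limit. The multiplier that sets this limit was 2.6 on replicates 1 and 2 and 13 on replicate 3. Passing it therefore does not mean the same on replicate 3 as on the other arrays. Of the 3 dry seed markers, SESA1 reached that limit in wild type on 0 arrays, CRU3 on 1 and CRA1 on 2. In tdt-1 SESA1 reached it on 1 array and CRU3 and CRA1 on 3 each. The root marker PLT1 reached it in tdt-1 on 1 array, and the other shoot and root markers on 3. CRA1 stood at 1.21, −0.02 and 3.50 and CRU3 at 0.38, 0.41 and 3.34 on replicates 1, 2 and 3, and the part of remaining seed RNA in the results below was not tested.

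In tdt-1 seedlings all 6 genes stood above wild type on all 3 arrays, as 31.4% of all tested loci did, while 27.5% were below on all 3. The mean ratios ran from 2.15 for AT5G37670 to 5.0 for ATHSP22.0, or 4.44-fold to 32.1-fold. The median of the 6 genes was 3.35, 3.96 and 3.85 on replicates 1, 2 and 3, where the 99th percentile of all tested loci was 1.64, 1.60 and 1.79. All 18 spots were well above background in both genotypes, and 0 were saturated or marked as non-uniform.

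**Figure D1:**
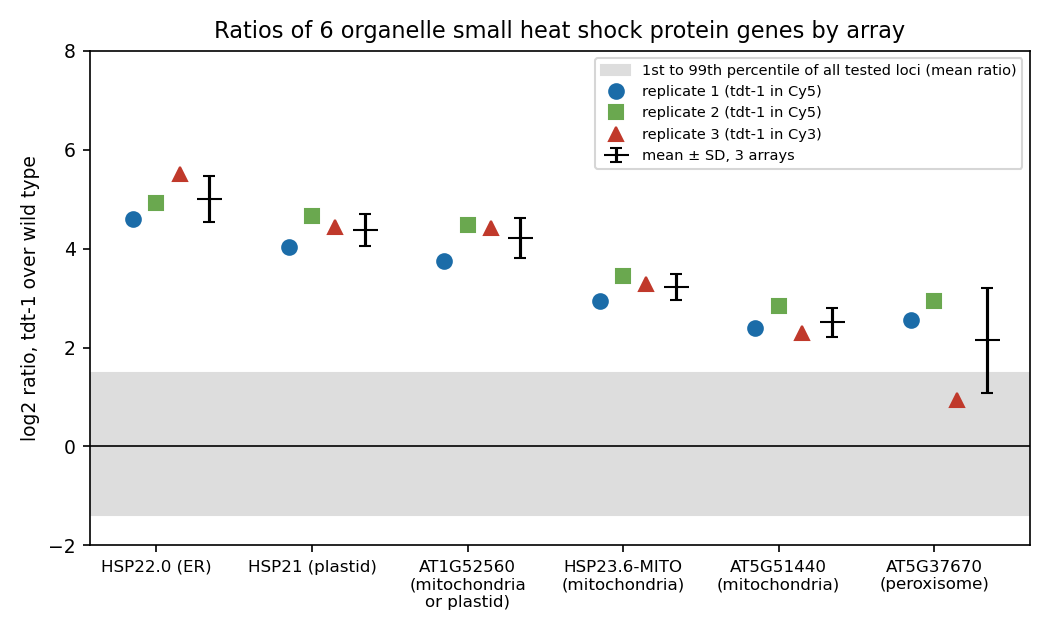
Log2 ratio of tdt-1 over wild type (vertical axis) for each of the 6 genes on each array, with the mean and SD over 3 arrays as a black bar. The grey band holds the mean ratios of all tested loci between their 1st and 99th percentiles. All points lie above the band except AT5G37670 on replicate 3, at 0.95.

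ATHSP22.0 encodes the small heat shock protein of the endoplasmic reticulum, the compartment where secreted and membrane proteins fold. Its probe lies on chromosome 4 at 6371055 to 6371114 on the + strand in the array design's coordinates, whose genome build the file does not name. Its intensity was 13470, 21260 and 25370 in tdt-1, against 344.0, 387.0 and 486.4 in wild type, on replicates 1, 2 and 3. On each array the tdt-1 value was far above the wild-type value. The ratios were 4.59, 4.92 and 5.50, with a mean of 5.0 ± 0.46 (SD, n = 3), which placed the gene first among the 20484 tested loci on every array.

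The other chaperones of the endoplasmic reticulum stood much closer to wild type. Of 15 tested genes of that list 3 were higher by limma (adjusted p under 0.05, the call used for all lists), 0 were lower and 12 did not pass; over all tested loci 7.36% were called higher and 5.97% lower. At an unadjusted p under 0.05, 8 were higher and 0 lower, where 3988 and 3193 of the 20484 tested loci were. Those 2 numbers are the background for the unadjusted counts of every list below. PDIL1-1, a protein disulphide isomerase, rose by 0.71 ± 0.08 (limma adjusted p = 0.0245). ATERDJ3A, a J-domain partner of the chaperone BiP, rose by 0.82 ± 0.24 (limma adjusted p = 0.0336). SDF2, a component of protein quality control in this compartment, rose by 0.84 ± 0.27 (limma adjusted p = 0.0363). BiP itself, the main HSP70 of the compartment, is encoded by BIP1 at 0.38 ± 0.07, BIP2 at 0.25 ± 0.10 and the stress-induced BIP3 at −0.30 ± 0.54, and none of the 3 passed the test. The list median was 0.30, against 0.02 for all tested loci. All 3 calls were lost without replicate 1 and without replicate 2.

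HSP21 is the small heat shock protein of the plastid and is known to protect the photosynthetic membranes under heat. Its probe lies on chromosome 4 at 13819062 to 13819121 on the − strand of the unnamed build. The intensity was 17280, 26540 and 9821 in tdt-1, against 692.1, 721.5 and 378.3 in wild type. On each array tdt-1 was the brighter genotype, and the ratio on replicate 3 lay between those of the other arrays. The ratios were 4.03, 4.66 and 4.44, with a mean of 4.38 ± 0.32, placing HSP21 in positions 4, 2 and 3 among tested loci.

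Most other chaperones and proteases of the plastid stood near or below wild type, beside 1 far above it. Of 11 tested genes 1 was higher, 1 was lower and 9 did not pass. That is 9.09% each way, near the 7.36% and 5.97% of all tested loci. At an unadjusted p under 0.05, 1 was higher and 4 lower, and the list median was −0.36. FTSH6, a protease of the thylakoid membrane known to degrade HSP21 during recovery from heat, rose by 3.69 ± 1.0 (limma adjusted p = 0.0214), with ratios of 2.67, 3.74 and 4.66. CPN60B, a subunit of the plastid chaperonin that assists Rubisco assembly, fell by 0.89 ± 0.29 (limma adjusted p = 0.0346). The FTSH6 call was lost without replicate 2 (limma adjusted p = 0.0507) and with replicates 1 and 2 averaged (limma adjusted p = 0.0504). The CPN60B call was lost with the scanner software's own ratio (limma adjusted p = 0.0648), without replicate 1 (0.143) and without replicate 2 (0.145). Without replicate 3 the list had 3 higher and 7 lower, where 7002 and 5463 of all 20484 tested loci were. CLPB3, the plastid disaggregase, stood at 0.32 ± 0.23, and the plastid HSP70 genes cpHsc70-1 and cpHsc70-2 stood at −0.43 ± 0.16 and −0.35 ± 0.33, none of them past the test. The shoot markers lay below wild type too, at medians of −0.22, −0.36 and −1.82 on replicates 1, 2 and 3, and their part in the plastid values was not tested.

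HSP23.6-MITO encodes a small heat shock protein of the mitochondrial matrix. Its probe lies on chromosome 4 at 12917699 to 12917758 on the + strand of the unnamed build. The intensity was 8856, 13620 and 8794 in tdt-1, against 766.8, 876.4 and 822.2 in wild type. On each array tdt-1 was the brighter genotype. The ratios were 2.95, 3.45 and 3.28, with a mean of 3.23 ± 0.26, the smallest SD among the 6 genes.

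AT5G51440, described in the array file as a mitochondrial small heat shock protein, had a smaller ratio. Its probe lies on chromosome 5 at 20909170 to 20909229 on the + strand of the unnamed build. The intensity was 6900, 9822 and 15840 in tdt-1, against 942.1, 1022 and 3046 in wild type. Again tdt-1 was the brighter genotype on each array. The ratios were 2.39, 2.84 and 2.30, with a mean of 2.51 ± 0.29.

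AT1G52560 carries conflicting descriptions of its place in the cell. The array file calls it HSP26.5-P and likens it to class I, where P is the class code of plastid members, while later work lists its product among mitochondrial members. Its probe lies on chromosome 1 at 19578457 to 19578516 on the − strand of the unnamed build. The intensity was 12570, 19320 and 12730 in tdt-1, against 536.8, 490.4 and 523.0 in wild type. On each array tdt-1 was far above wild type. The ratios were 3.75, 4.47 and 4.42, with a mean of 4.21 ± 0.41, closer to HSP21 than to HSP23.6-MITO or AT5G51440.

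Of 11 tested genes for other chaperones and proteases of mitochondria, 3 were higher (27.3%), 0 were lower and 8 did not pass. Over all tested loci 7.36% were higher and 5.97% lower. At an unadjusted p under 0.05, 4 of the list were higher and 0 lower. MTHSC70-2, a mitochondrial HSP70, rose by 0.87 ± 0.08 (limma adjusted p = 0.0199). CLPB4, the mitochondrial disaggregase, rose by 0.87 ± 0.23 (limma adjusted p = 0.0290). HSP60, the mitochondrial chaperonin, rose by 0.43 ± 0.04 (limma adjusted p = 0.0484), a call that was lost with the scanner's own ratio (limma adjusted p = 0.0579). It was also lost with no background correction (limma adjusted p = 0.055) and with a normexp offset of 10 (0.0534). The other mitochondrial HSP70 gene, mtHsc70-1, stood at −0.12 ± 0.53. The list median was 0.21, and all 3 calls were lost without replicate 1 and without replicate 2.

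**Figure D2:**
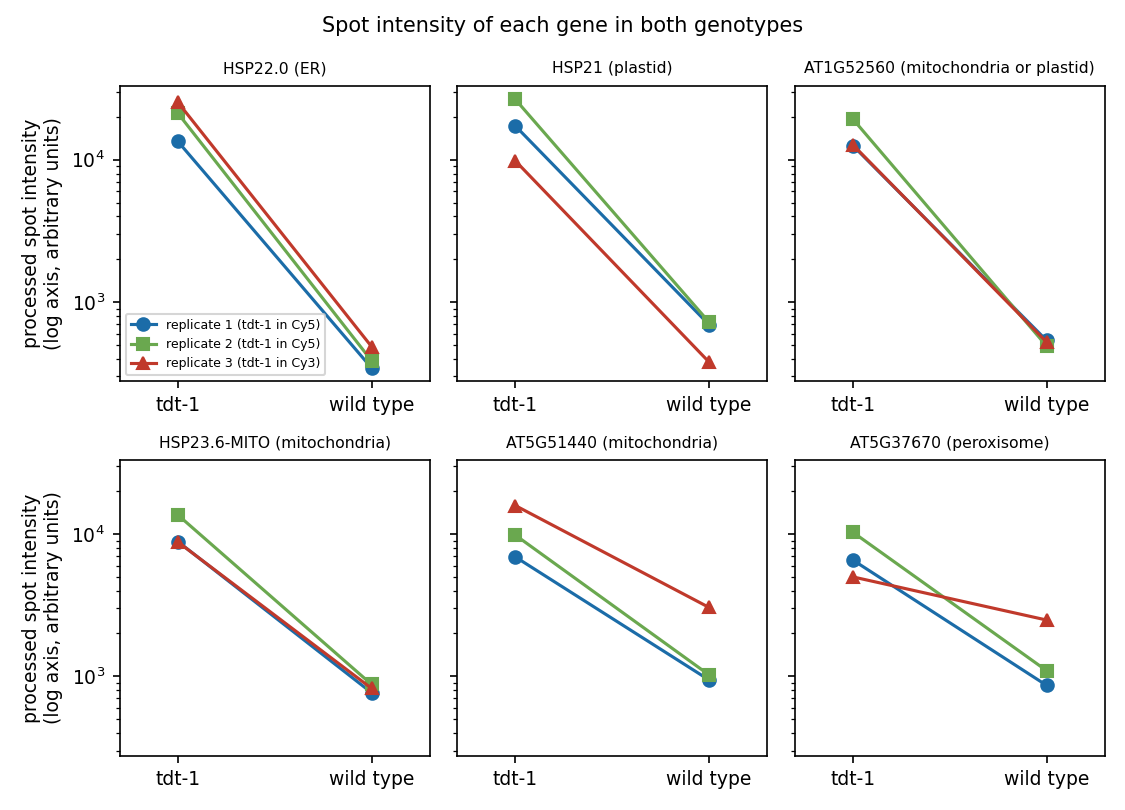
Processed spot intensity (log axis, arbitrary units) of each gene in tdt-1 (left) and wild type (right), with a line for each array. On each array tdt-1 is above wild type for every gene, and the shallowest line is that of AT5G37670 on replicate 3, at 4995 in tdt-1 and 2485 in wild type.

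AT5G37670 encodes a small heat shock protein that work on Arabidopsis peroxisomes found in that organelle. The array file describes it instead as related to class I, the main cytosolic class. Its probe lies on chromosome 5 at 14986579 to 14986638 on the + strand of the unnamed build. The intensity was 6559, 10290 and 4995 in tdt-1, against 863.2, 1095 and 2485 in wild type. On each array tdt-1 was the brighter genotype, by the smallest margin on replicate 3. The ratios were 2.56, 2.94 and 0.95, with a mean of 2.15 ± 1.06, the widest SD of the 6 genes. Without replicate 3 the mean was 2.75.

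The other peroxisomal genes of the list did not stand higher as a group. Of 6 tested genes for protein import and quality control 0 were higher, 1 was lower (16.7%) and 5 did not pass. Over all tested loci 7.36% were higher and 5.97% lower. At an unadjusted p under 0.05, 1 of the 6 was higher and 1 lower, where 3988 and 3193 of the 20484 tested loci were. LON2, a protease of the peroxisomal matrix, fell by 0.90 ± 0.39 (limma adjusted p = 0.0476), a call that was lost with no background correction (limma adjusted p = 0.0631), without replicate 1 (0.0938) and without replicate 2 (0.159). ACD32.1 (AT1G06460), a further peroxisomal protein with an alpha-crystallin domain, stood at 1.22, 1.03 and −0.51 on replicates 1, 2 and 3, averaging 0.58 ± 0.95 (limma adjusted p = 0.347). It was named after its values were seen, as were the BIP genes, CLPB3, cpHsc70-1, cpHsc70-2, mtHsc70-1, AT4G21870, AT5G54660, the class A1 factors and HSP101. In the peroxisomal list, 3 of 6 genes had their lowest ratio on replicate 3 and 3 their highest. Replicate 3 departed from the mean of the other arrays with an SD of 0.60 over all tested loci, against 0.18 between replicates 1 and 2. The share of all tested loci with an extreme on replicate 3 was not counted, so nothing is read from those counts.

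Ordered by mean ratio, the 6 genes ran ATHSP22.0, HSP21, AT1G52560, HSP23.6-MITO, AT5G51440 and AT5G37670. ATHSP22.0 was above HSP21 on 3 of 3 arrays, by 0.63 ± 0.40. HSP21 was above AT1G52560 on 3 of 3 arrays, but by as little as 0.02 on replicate 3, and the mean difference of 0.17 ± 0.13 was smaller than the SD of either gene. AT1G52560 was above HSP23.6-MITO by 0.99 ± 0.17, and HSP23.6-MITO above AT5G51440 by 0.71 ± 0.23, each on 3 of 3 arrays. AT5G51440 was above AT5G37670 on 1 of 3 arrays only, with differences of −0.17, −0.10 and 1.35, a mean of 0.36 ± 0.86, smaller than its spread.

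Replicate 2 gave a higher ratio than replicate 1 for 6 of 6 genes, by 0.33 for ATHSP22.0 up to 0.73 for AT1G52560, where the 90th percentile of that difference over all tested loci was 0.19. The median of that difference over all tested loci was −0.008, so that at most 50% of them were higher on replicate 2 than on replicate 1. The exact share was not counted. Other lists moved the same way in part. Higher on replicate 2 than on replicate 1 were 17 of 17 other heat-inducible genes and 10 of 12 cytosolic small heat shock proteins. So were 10 of 11 plastid and 8 of 11 mitochondrial genes, but only 8 of 21 heat shock transcription factors. Of the endoplasmic reticulum list 7 of 15 were higher there, and of the peroxisomal list 2 of 6. Replicate 3 had no common direction. Against the mean of replicates 1 and 2 it was higher by 0.75 for ATHSP22.0, 0.31 for AT1G52560, 0.10 for HSP21 and 0.08 for HSP23.6-MITO, and it differed by −0.32 for AT5G51440 and −1.81 for AT5G37670. The 10th and 90th percentiles of all tested loci were −0.77 and 0.55, so that AT5G37670 lay below that range, ATHSP22.0 lay above it and the other 4 genes lay within it.

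The wild-type spots were set side by side across arrays, each probe against itself, after scaling to the array. Wild type was in Cy3 on replicates 1 and 2 and in Cy5 on replicate 3. A difference in RNA there cannot be told apart from the change of dye, layout, scan day, scan resolution and software. Scaling does not remove that change for single probes. As a multiple of the array's median wild-type spot, before background correction, AT5G37670 read 6.21 on replicate 3, against 1.37 and 1.65 on replicates 1 and 2. AT5G51440 read 7.82 there, against 1.54 and 1.63. HSP23.6-MITO read 2.45 there, against 1.38 and 1.5, AT1G52560 1.65 against 1.17 and 1.13, and ATHSP22.0 1.31 against 0.789 and 0.964. HSP21 alone of the 6 did not read higher in wild type on replicate 3, at 1.15 against 1.26 and 1.32. In tdt-1 AT5G51440 also read higher on replicate 3, at 38.6 times the array's median tdt-1 spot against 15.4 and 20.2, while AT5G37670 read 12 there against 14.7 and 21.2. Wild-type spots on replicates 1 and 2 were dim, at 2.57 to 5.01 times the local background, so that the size of the ratios there depends on the background correction.

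The cytosolic members of the family shared the direction with 2 exceptions. The list median was 2.86, against 3.72 for the 6 organelle genes. Over all tested loci 7.36% were higher and 5.97% lower. Of 12 tested genes of the list 10 were higher (83.3%), 1 was lower (8.33%) and 1 did not pass. These counts are not independent of the choice of the organelle genes, since the same arrays showed the whole family earlier. HSP18.2, of class I, rose by 3.63 ± 0.47 and AT1G53540, also of class I, by 3.42 ± 0.45 (limma adjusted p = 0.0145 each). HSP17.6A (AT5G12030), of class II, rose by 2.88 ± 0.35 (limma adjusted p = 0.0145). The cytosolic mean ratios overlapped those of the organelle genes, 3 of which lay above all 12 cytosolic genes by mean. On replicate 1 AT1G52560, 1 of those 3, lay below HSP18.2, at 3.745 against 3.817. AT4G21870, which the array file calls HSP26.5-P as it does AT1G52560, went the other way, at −1.78, −2.04 and −2.85 (mean −2.22 ± 0.56, limma adjusted p = 0.0205). AT5G54660, described as only weakly similar to class I, stood at −0.47 ± 0.30 and did not pass. Higher calls numbered 8 without replicate 1 or without replicate 2 and 5 with replicates 1 and 2 averaged. Under those settings 115, 66 and 24 of all 20484 tested loci were called higher. The lower call was lost without replicate 2 and with that average. On replicate 3, 9 of the 12 cytosolic genes had their lowest ratio, as did 2 of the 6 organelle genes. The share of all tested loci with their lowest ratio there was not counted, so nothing is read from these counts.

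**Figure D3:**
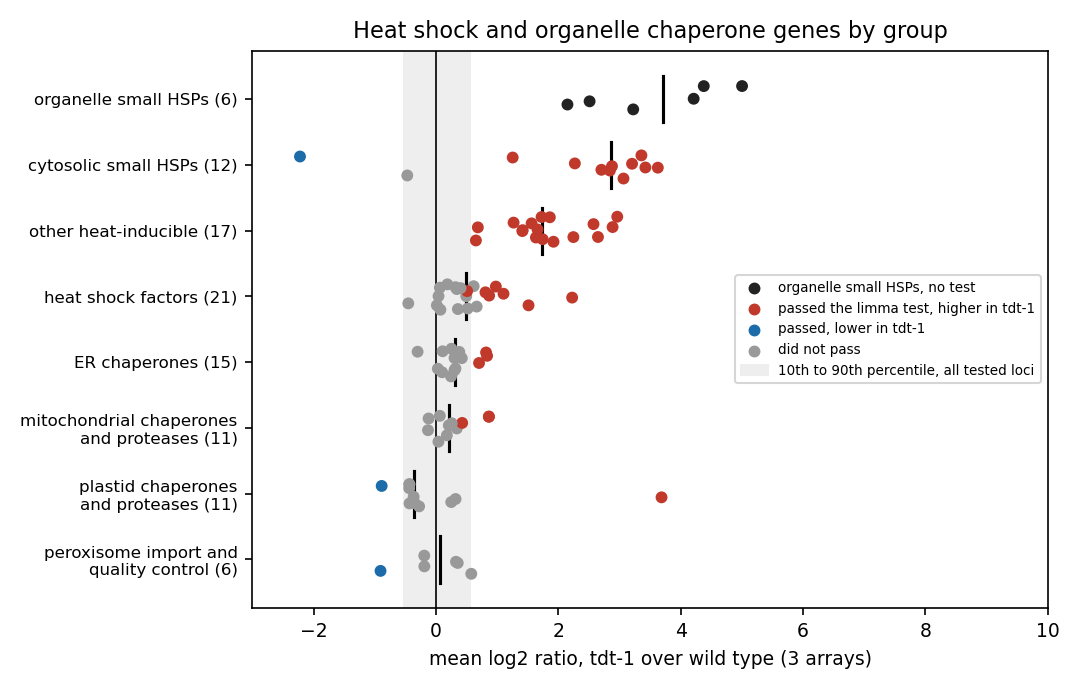
Mean log2 ratio of tdt-1 over wild type (horizontal axis) for each gene of the 8 groups, with the group median as a vertical bar and the number of genes in brackets. The grey band holds all tested loci between their 10th and 90th percentiles. The organelle small heat shock proteins have a median of 3.72, the cytosolic list 2.86, the other heat-inducible genes 1.73, and the other organelle chaperone lists lie between −0.36 and 0.30.

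Heat shock transcription factors, the family that holds the activators of these genes, stood higher in part. Of 21 tested genes 7 were higher (33.3%), 0 were lower and 14 did not pass. Over all tested loci 7.36% were higher and 5.97% lower. At an unadjusted p under 0.05, 11 of the list were higher and 1 lower. HSFA2, a factor that is itself induced by heat and prolongs the response, rose by 2.23 ± 0.59 (limma adjusted p = 0.0220), with ratios of 2.20, 1.65 and 2.83; its wild-type spot passed the detection limit on 2 of 3 arrays, and the scanner's own ratio averaged 3.43. HSFA6A rose by 1.51 ± 0.30 (limma adjusted p = 0.0192) and HSFA8 by 0.87 ± 0.09 (limma adjusted p = 0.0203). Of the class A1 genes, whose products start the response to heat, HSFA1E was higher at 0.81 ± 0.21 (limma adjusted p = 0.0297). HSF1 (HSFA1A) at 0.34 ± 0.32, HSF3 (HSFA1B) at 0.40 ± 0.20 and HSFA1D at 0.19 ± 0.33 did not pass. The list median was 0.50. Higher calls numbered 0 without replicate 1, 1 without replicate 2, 15 without replicate 3 and 0 with replicates 1 and 2 averaged. Over all 20484 tested loci they numbered 115, 66, 7002 and 24 in that order. Without replicate 1 HSFA2 (limma adjusted p = 0.0586), HSFA6A (0.065) and HSFA8 (0.0938) all lost their call.

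Of 17 other heat-inducible genes of the cytosol and nucleus 17 were higher, as 7.36% of all tested loci were. The list median was 1.73. Higher calls numbered 7 without replicate 1, 5 without replicate 2, 17 without replicate 3 and 3 with replicates 1 and 2 averaged. In that order they numbered 115, 66, 7002 and 24 over all 20484 tested loci. That list was drawn up from genes known to respond to heat, with the earlier result for the heat shock genes of these arrays in view. GolS1, which starts the synthesis of raffinose sugars, rose by 2.96 ± 0.18 (limma adjusted p = 0.0126). DREB2A, a transcription factor of heat and drought, rose by 1.92 ± 0.12, and HSP70 (AT3G12580), the main inducible cytosolic HSP70, by 1.66 ± 0.02 (limma adjusted p = 0.0144 each). HSP101, the cytosolic disaggregase that works with small heat shock proteins, rose by 1.64 ± 0.32 (limma adjusted p = 0.0185).

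Over the 7 lists outside the 6 organelle genes, 41 of 93 genes were higher (44.1%) and 3 lower (3.23%). Over all tested loci 7.36% were higher and 5.97% lower. Median centring in place of loess left 0 of the 93 higher and 0 lower by limma. At an unadjusted p under 0.05 it gave 46 and 1 of the 93, and 2408 and 1227 of the 20484 tested loci. Higher calls numbered 16 without replicate 1, 14 without replicate 2, 64 without replicate 3 and 8 with replicates 1 and 2 averaged. The same settings gave 115, 66, 7002 and 24 over the 20484 tested loci.

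The loci whose 3 ratios lay nearest to the per-array median of the 6 organelle genes were sought among the 20478 other tested loci, by Euclidean distance over the 3 arrays. The 5 nearest were HSP18.2 at a distance of 0.89, AT1G53540 at 0.98, FTSH6 at 1.08, AT5G07330 at 1.09 and CORI3 at 1.1. AT5G07330, which the array file lists as an expressed protein of no stated function, stood at 2.96, 3.38 and 3.02. CORI3, which the file describes as a coronatine-responsive tyrosine aminotransferase, stood at 4.12, 3.96 and 3.06. The likeness covers 3 arrays of the same comparison only.

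The tested genes among those that neighbour the 6 loci along the chromosomes did not share their ratios. In gene order of the TAIR10.1 reference table, 37 of the 60 nearest neighbours, 5 on each side of each locus, were tested. For ATHSP22.0 only 3 of 10 were, and neither gene directly beside it was tested. The genes directly before HSP21 and AT5G37670 were not tested either. The mean ratios of the 37 tested neighbours lay between −1.46 and 0.44, with a median of 0.13. By limma at an unadjusted p under 0.05, 6 were higher and 4 lower, where 3988 and 3193 of the 20484 tested loci were. After adjustment 0 were higher and 2 were lower (5.41%), against 7.36% and 5.97% of all tested loci. The 2 were AT4G25170, the fourth gene before HSP23.6-MITO, at −1.46 ± 0.29 (limma adjusted p = 0.0195), and AT5G51470, the fifth after AT5G51440, at −0.65 ± 0.21 (limma adjusted p = 0.0424), both named after their values were seen. The 3 loci on chromosome 4 and the 2 on chromosome 5 are not neighbours of each other.

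**Figure D4:**
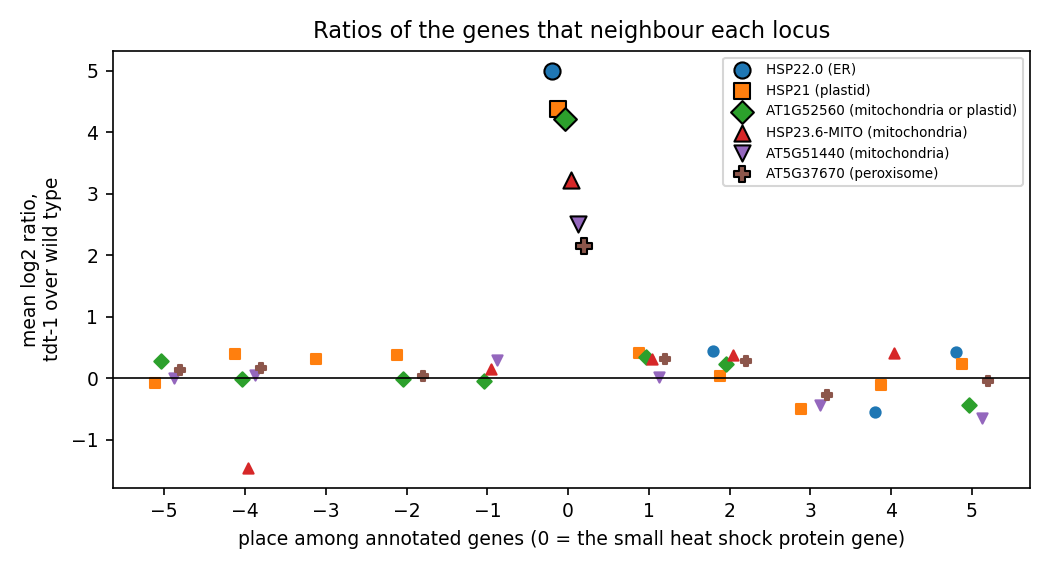
Mean log2 ratio of tdt-1 over wild type (vertical axis) against place in gene order (horizontal axis), where 0 is the small heat shock protein gene and each marker shape and colour is 1 of the 6 loci. The 6 genes stand at 2.15 to 5.0, and the 37 tested neighbours at −1.46 to 0.44.

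The processing changed the size of the ratios but not their sign. Under 13 alternatives the mean of ATHSP22.0 lay between 4.72 and 5.59, HSP21 between 4.18 and 4.85, AT1G52560 between 4.0 and 4.82, HSP23.6-MITO between 3.09 and 3.64, AT5G51440 between 2.35 and 2.84 and AT5G37670 between 1.75 and 2.75. The scanner software's own ratio gave the highest value for 5 of the genes. For AT5G37670 the highest and the lowest both came from leaving out an array. The scanner software attached an error to each of its ratios, which was 0.45, 0.47 and 0.58 for ATHSP22.0 and 0.31, 0.29 and 0.22 for AT5G37670 on replicates 1, 2 and 3. These errors describe single spots and leave out the spread between seedling samples.

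**Figure D5:**
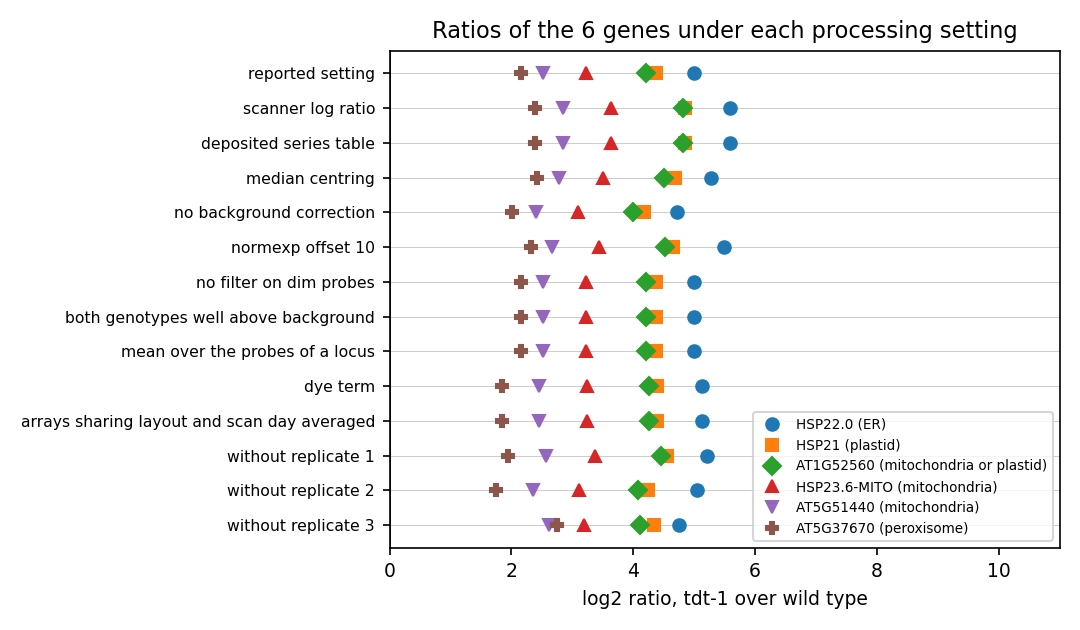
Mean log2 ratio of tdt-1 over wild type (horizontal axis) of each of the 6 genes under the reported setting and 13 alternatives (vertical axis). The order of the genes is the same in each row except without replicate 3, where AT5G37670 at 2.75 passes AT5G51440 at 2.62.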

How the data were processed

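Per the file headers, the deposited intensities, log10 ratios of Cy5 over Cy3 and 0 or 1 flags were written by Agilent Feature Extraction (8.5.1.1 on replicates 1 and 2, 9.1.3.1 on replicate 3). The deposited series table holds the log2 ratio, tdt-1 on top, equal to the software's with the sign turned on replicate 3 (slope 1, median 0). From the mean spot and median background intensities, limma 3.58.1 (R 4.3.3) applied normexp with offset 50 and within-array loess, giving control spots no weight. Non-uniform outlier spots (16, 11 and 81) were left out, spots of a probe averaged, and the brightest probe kept per locus. A probe was tested where 1 genotype or both passed the well-above-background flag on each array, whose multiplier was 2.6, 2.6 and 13. Of 25665 loci 20484 were tested, by limma's lmFit and eBayes with Benjamini-Hochberg adjustment at 0.05. The fit was tested on simulated data in which the 3 arrays varied independently. Replicates 1 and 2 are more alike than that, so the simulation does not cover how their likeness affects the calls. Names came from the TAIR10.1 reference table (25449 loci matched). The 6 loci, the lists and the rule for names were chosen with earlier results of these data known. The rule names the 6 loci, the 3 smallest p past the test of each list (otherwise the smallest) and the 5 loci nearest in pattern. The number of arrays limits the precision.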

Additional observations from a re-analysis of the deposited data

How the results depend on the processing

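The analysis was paired by array, since each array holds both genotypes and its ratio is the paired value. Of the 6 genes' values, those that moved by more than 1 SD were, with the scanner's ratio and with the deposited table alike, ATHSP22.0 (5.59), HSP21 (4.85), AT1G52560 (4.82), HSP23.6-MITO (3.64), AT5G51440 (2.84) and the median of the 6 (4.23), with offset 10 ATHSP22.0 (5.50), and with median centring HSP23.6-MITO (3.51). Smaller offsets compress ratios less, and the cause of the other shifts was not tested. Over all tested loci, 1508 were higher and 1222 lower. Median centring gave 1 and 0, with 2408 and 1227 at an unadjusted p under 0.05 by limma, a dye term 6941 and 6260, and replicates 1 and 2 averaged 24 and 19. Leaving out an array gave 66 to 7002 higher and 45 to 5463 lower. Of the 93 other heat shock and chaperone genes, 41 higher and 3 lower, median centring left 0 and 0, a dye term gave 69 and 14, the averaged replicates 8 and 0, and leaving out an array 14 to 64 higher and 0 to 14 lower. The larger counts leave out the spread toward replicate 3 by construction. The 20 other genes named by the rule kept their sign under the alternatives that gave them a value, which for HSFA2 leaves out the one requiring both genotypes well above background. Of the 20, 20 lost their call under median centring, 14 with replicates 1 and 2 averaged, 12 without replicate 2 and 11 without replicate 1. Signal over background limits the ratios in wild type on replicates 1 and 2.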
